A study of Drosophila melanogaster with 8 samples.

Results

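A set of 10 genes of the Toll and Imd immune pathways was followed in fly heads. They are the ligand spz, the receptor Tl, the serpin nec, the inhibitor cact and the transcription factors Dif and dl of the Toll pathway, and the adaptor imd, the caspase Dredd, the kinase subunit key and the transcription factor Rel of the Imd pathway. They were chosen by symbol as components of the pathways, with earlier results of these data known, and all of them were found by FlyBase identifier among the 14622 identifiers of the expression table. EA flies (genotype y, sc, Adar E374A) make an RNA editing enzyme, ADAR, that cannot edit because of a single amino acid change, and they also carry the y and sc alleles. WT flies were white Canton-S, the strain to which the mutant had been backcrossed. Heads of 3 day old males kept at 18 °C were used for both, and 4 RNA sequencing libraries were made per genotype. The RNA was depleted of ribosomal RNA according to the protocol, although the molecule label reads polyA RNA.

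The Toll and Imd pathways are the main routes by which Drosophila detects microbes and switches on genes for antimicrobial peptides, largely in the fat body and in blood cells. In the Toll pathway a protease cascade cleaves Spätzle, the product of spz, which binds the receptor Toll, and the cascade is restrained by the serpin Necrotic, while the IκB protein Cactus holds the NF-κB factors Dif and Dorsal in the cytoplasm until the receptor is engaged. In the Imd pathway receptors for peptidoglycan recruit the adaptor Imd and the caspase Dredd, the IKK complex with its regulatory subunit Kenny (key) is activated, and the NF-κB factor Relish (Rel) is cleaved and enters the nucleus. RNA levels of these components do not report the cleavage or localisation by which the pathways are switched.

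Values below are normalized counts, the reads of a library divided by the size factor of that library. Reads assigned to the identifiers summed to 12517490 to 24342035 per library in EA and 9930607 to 19173154 in WT. No member had fewer than 61 reads in any library. Adar itself averaged 5029 ± 1372 normalized counts in EA and 4050 ± 523 in WT (SD, n = 4 each, limma adjusted p = 0.594), which does not test a point mutation. The gene w was read 117 to 301 times in EA libraries and at most 3 times in WT libraries, and white is in the label of the WT strain. The groups thus also differed in w, which lies on the X chromosome as Adar does. Effects of the w, y and sc differences cannot be told apart from those of the Adar mutation in this design. The same holds for any other sequence difference on the X chromosome near these genes, where Dredd also lies. Markers of neurons, photoreceptors and glia were detected. Of the 10 photoreceptor markers the arrestin genes Arr1 (log2 fold change 0.67 ± 0.13, limma adjusted p = 0.0492) and Arr2 (0.83 ± 0.13, 0.0166) were higher in EA, while ninaE, the most abundant, had 0.57 ± 0.13 (0.0853) and trp, the lowest, 0.02 ± 0.11 (0.972). Of 7 neuron markers tested Syt1 was the highest and most abundant at 0.95 ± 0.20 (limma adjusted p = 0.0557, past the threshold in DESeq2) and brp the lowest at -0.10 ± 0.17 (0.873). Of 6 glia markers alrm was the highest at 0.38 ± 0.14 (limma adjusted p = 0.285), moody the lowest at -0.11 ± 0.08 (0.638) and Gs2 the most abundant at 0.05 ± 0.11 (0.931). Because these are bulk samples, fewer cells of a type and less RNA per cell cannot be told apart.

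Whether the EA genotype went with a different RNA level of the pathway components was asked gene by gene. None of the 10 members passed limma's threshold of adjusted p = 0.05, where 1.21% of all 10347 genes tested passed (68 or 0.657% higher and 57 or 0.551% lower in EA). No member passed in edgeR (1.22% of all genes) or in DESeq2 (4.54% of the 11462 genes given an adjusted p). At an unadjusted p under 0.05 there were 2 members in each of the 3 tools, Tl and Rel, both higher in EA, against 12.7% of all genes in limma (7% higher and 5.65% lower). All 10 fitted log2 fold changes of EA over WT were above 0, against 49.3% of all genes, but 7 of them were within 0.15 of 0, and with EA replicate 3 left out 5 were above 0 and 5 below. The members' median log2 fold change was 0.08, and without EA replicate 3 it was 0.01. Scaling by total reads in place of size factors raised it to 0.17, with the median of all genes moving by 0.088. Over all genes the median was -0.0029.

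**Figure D1:**
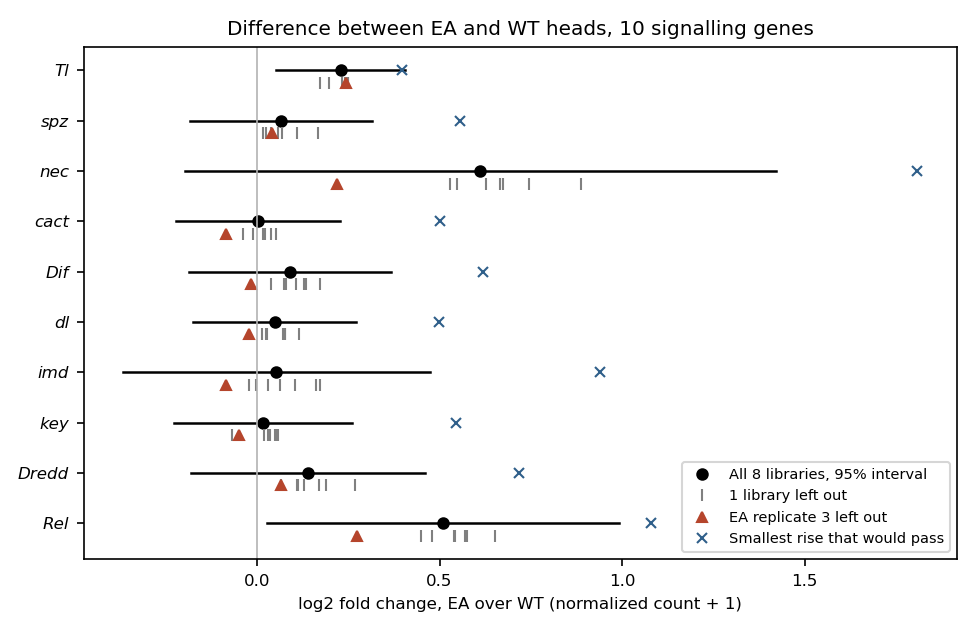
Fitted log2 fold change of EA over WT for each of the 10 members with its 95% interval (limma, 4 libraries per group), and the same estimate with EA replicate 3 left out. The intervals of Tl and Rel lie above 0 before adjustment, nec has the widest interval, and the estimates of nec and Rel move furthest towards 0 when EA replicate 3 is left out.

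The receptor gene Tl (FBgn0262473, chromosome 3R:26799041-26842403, plus strand) had 1962, 1669, 1695 and 1671 normalized counts in the EA libraries, against 1544, 1527, 1498 and 1391 in the WT libraries. Every EA library was above every WT library, and Tl was the only member with no overlap between the groups, a pattern seen in 7.99% of all genes tested (3.96% with EA above WT and 4.03% with EA below it). The fitted difference was 0.23 ± 0.08 (log2, SE; 95% interval 0.05 to 0.41), a fold of 1.17, with an unadjusted p of 0.0166 and a limma adjusted p of 0.242. EA replicate 1 lay furthest above the rest, and the estimate ran from 0.17 to 0.25 when single libraries were left out. At this spread a fold of 1.32 would have been needed to pass.

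The ligand gene spz (FBgn0003495, 3R:27064990-27070070, minus strand) had 603, 441, 573 and 576 normalized counts in EA libraries, against 513, 570.0, 479 and 523 in WT libraries. The lowest and the highest of the 8 values were both EA libraries, so the groups overlapped fully. Its log2 fold change was 0.07 ± 0.11 (limma adjusted p = 0.882).

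The gene nec (FBgn0002930, 2R:7156477-7158241, minus strand) encodes the serpin that inhibits the protease cascade upstream of Spätzle. It had 1313, 843, 3396 and 1336 normalized counts in EA libraries, against 855, 1014, 821 and 1293 in WT libraries. A single library, EA replicate 3, stood at 2.92 times the mean of the other EA libraries. EA replicates 1 and 4 were just above the highest WT library, and EA replicate 2 was inside the WT range. The group means were 1722 ± 1139 in EA and 996 ± 215 in WT (SD, n = 4 each), a fold of 1.53 with a 95% interval from 0.873 to 2.68. The log2 fold change was 0.61 ± 0.36 (limma adjusted p = 0.547), and 0.22 without EA replicate 3. With this spread only a fitted fold of at least 3.501 would have passed in limma, which bounds the estimate and not the true change.

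Downstream of the receptor, cact (FBgn0000250, 2L:16313036-16326207, minus strand), the IκB inhibitor, had the estimate closest to 0 of all members. Its normalized counts were 1644, 1543, 2046 and 1651 in EA libraries, against 1573, 1667, 1841 and 1766 in WT libraries. EA libraries were both the lowest and the highest of the 8. The means were 1721 ± 222 in EA and 1712 ± 116 in WT (SD, n = 4 each), and the log2 fold change was 0.00 ± 0.10 with a 95% interval from -0.22 to 0.23 (limma adjusted p = 0.997).

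The 2 NF-κB factor genes of the pathway, Dif (FBgn0011274, 2L:17413248-17433161) and dl (FBgn0260632, 2L:17436830-17450364), are neighbours on the minus strand of chromosome 2L. Dif, the factor that acts in adult immunity, had 1837, 1492, 2214 and 1640 normalized counts in EA libraries, against 1502, 1732, 1831 and 1628 in WT libraries. For dl, which encodes Dorsal, the counts were 1341, 1112, 1471 and 1202 in EA libraries, against 1182, 1310, 1149 and 1296 in WT libraries. In both genes the EA libraries spanned the WT values, with EA replicate 3 highest and EA replicate 2 lowest. The log2 fold changes were 0.09 ± 0.12 for Dif (limma adjusted p = 0.847) and 0.05 ± 0.10 for dl (limma adjusted p = 0.906).

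**Figure D2:**
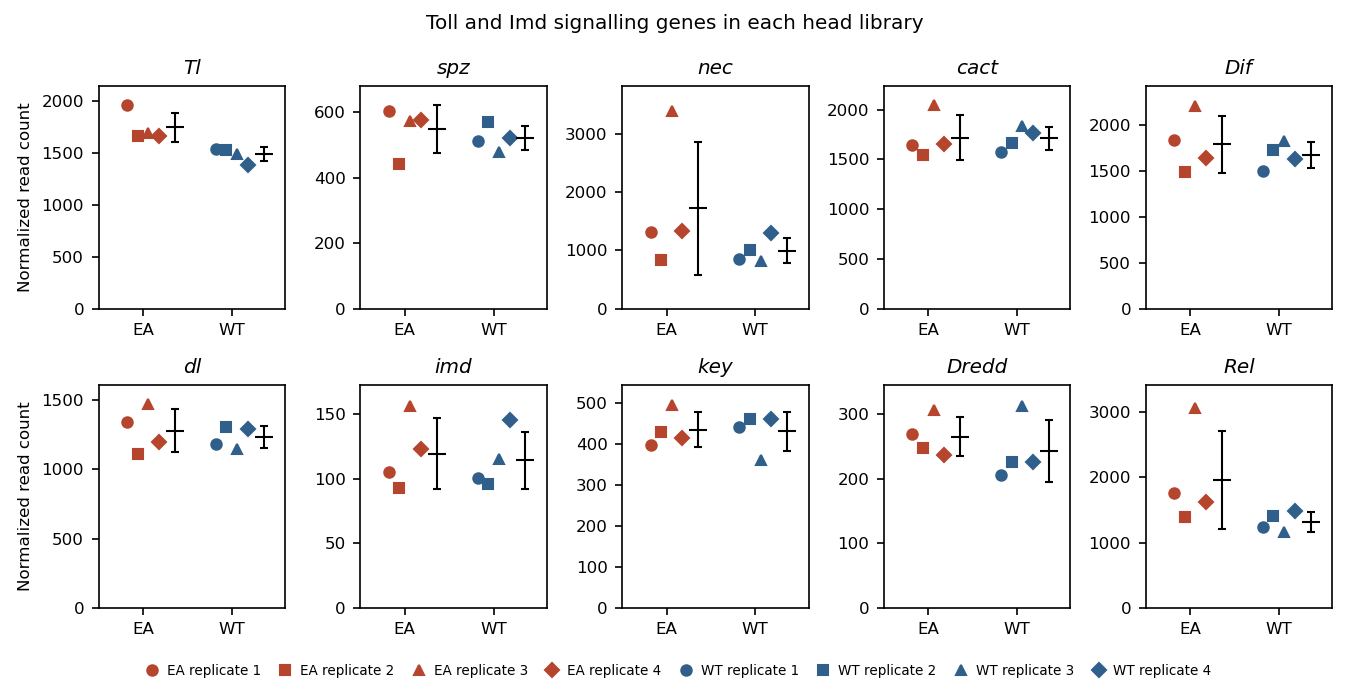
Normalized count of each member in each of the 8 libraries, EA left and WT right, with the group mean and SD (n = 4 each). Tl is the one member whose EA points all lie above its WT points, and in nec and Rel a single EA library, replicate 3, stands at 3396 and 3060, above all others.

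Of the Imd pathway members, imd (FBgn0013983, 2R:18409796-18413599, minus strand), the adaptor after which the pathway is named, was the least abundant. It had 105, 93.2, 156 and 123 normalized counts in EA libraries, against 101, 96.3, 115.4 and 145 in WT libraries. The groups overlapped over almost the whole range, and the log2 fold change was 0.05 ± 0.19 with a 95% interval from -0.37 to 0.47 (limma adjusted p = 0.952).

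Dredd (FBgn0020381, X:633622-635545, minus strand) encodes the caspase that cleaves Imd and Relish, and it lies between y and Adar on the X chromosome, 1.14 Mb from Adar. Its normalized counts were 269, 247, 306 and 237 in EA libraries, against 205, 226, 313 and 226 in WT libraries. WT replicates 1, 2 and 4 were below all 4 EA libraries, and WT replicate 3 was above them. The log2 fold change was 0.14 ± 0.14 (limma adjusted p = 0.776).

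The IKKγ subunit gene key (FBgn0041205, 2R:24785514-24787411, minus strand) had 398, 429, 496 and 415 normalized counts in EA libraries, against 441, 459, 359 and 461 in WT libraries. The mean was 434 ± 42.9 in EA libraries, against 430 ± 48.1 in WT libraries (SD, n = 4 each). These differed by much less than either SD. The log2 fold change was 0.02 ± 0.11 (limma adjusted p = 0.979).

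The gene for the pathway's transcription factor, Rel (FBgn0014018, 3R:9044183-9047977, minus strand), had 1761, 1393, 3060 and 1628 normalized counts in EA libraries, against 1233, 1405, 1156 and 1486 in WT libraries. EA replicate 3 was 1.92 times the mean of the other EA libraries, EA replicates 1 and 4 were also above all WT libraries, and EA replicate 2 was inside the WT range. The means were 1961 ± 748 in EA and 1320 ± 152 in WT (SD, n = 4 each). The log2 fold change was 0.51 ± 0.22 with a 95% interval from 0.03 to 0.99, a fold of 1.42, with an unadjusted p of 0.0405 and a limma adjusted p of 0.362. Without EA replicate 3 the log2 fold change was 0.27, and a fold of 2.11 would have been needed to pass with all 8 libraries.

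Most members shared a pattern among the EA libraries. EA replicate 3 was the highest of all 8 libraries in 7 of the 10 members, where it was the highest in 21.7% of all genes tested. It was also the highest in 7 of 10 photoreceptor markers, 3 of 5 tested ubiquitous reference genes and 3 of 6 glia markers. Among the 7 neuron markers tested it was the highest in 0. Within EA, replicate 3 was highest in 8 members (35.9% of all genes) and replicate 2 was lowest in 8 members (25.6% of all genes). The exceptions to replicate 3 being the highest of 8 were Tl and spz, which were highest in EA replicate 1, and Dredd, which was highest in WT replicate 3. The summed neuron markers were lower in EA replicate 3 (68884 normalized counts) than in the other EA libraries (95230 to 118093), against 63076 to 83643 in WT libraries, and their part in the values of the members was not tested. The 95% interval of the log2 fold change stayed within ±0.5 for 8 members, all except nec and Rel.

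Levels can be compared between genes only per length, and the normalized count per kb of annotated exon was used for that. In WT heads nec was highest at 610 ± 132 per kb (SD, n = 4 for every value in this paragraph) and imd lowest at 75.4 ± 14.6 per kb, an 8.09-fold range of mean levels. Between them came cact (515 ± 35.0), Rel (377 ± 43.5), key (303 ± 33.8), Dif (294 ± 24.8), Tl (287 ± 13.2), spz (220 ± 15.9), dl (192 ± 12.6) and Dredd (142 ± 28.1). Neighbours in this order whose WT libraries overlapped were nec and cact, key and Dif, Dif and Tl, spz and dl, and dl and Dredd. In EA heads the order of mean levels was nec (1055 ± 697), Rel (560 ± 214), cact (518 ± 66.8), Tl (336 ± 27.4), Dif (315 ± 54.9), key (306 ± 30.2), spz (232 ± 30.7), dl (199 ± 24.5), Dredd (155 ± 18.0) and imd (78.7 ± 18.1). Rel thus stood above cact in the EA means, against below it in WT, but the EA libraries of the 2 genes overlapped. The ranks depend on the length taken for each gene: with the longest annotated transcript in place of all exons, 3 of the 10 WT ranks were the same. With that length cact (727 per kb) was above nec (610) in WT, and cact was above Rel in EA (730.5 and 560.3 per kb) as in WT.

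**Figure D3:**
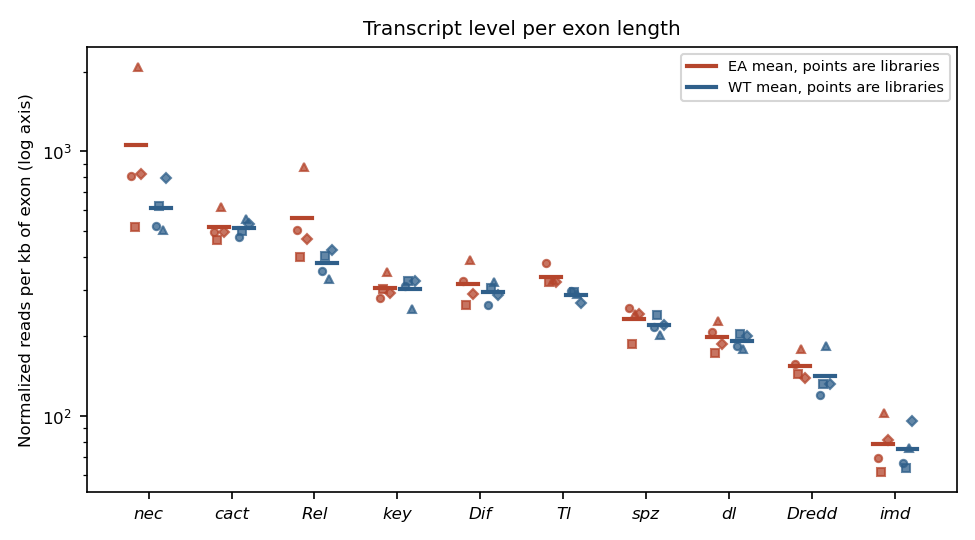
Normalized count per kb of exon for each member, EA and WT libraries as points with the mean as a line (n = 4 each). In WT the members span 75.4 per kb (imd) to 610 per kb (nec), and the broadest spread is that of nec and Rel in EA.

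The balance between members was described in each library as a ratio of counts per kb, without a test. The ratio of the inhibitor cact to Dif plus dl was 0.932, 1.07, 0.997 and 1.05 in EA libraries, against 1.06, 0.988, 1.11 and 1.09 in WT libraries. It overlapped between the groups and varied by little, 1.01 ± 0.0602 in EA and 1.06 ± 0.0528 in WT (SD, n = 4 each).

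The ratio of Dif to dl was 1.55, 1.52, 1.70 and 1.54 in EA libraries, against 1.44, 1.49, 1.80 and 1.42 in WT libraries, so that Dif was above dl per length in every library. The ratio of the ligand spz to its receptor Tl was 0.676, 0.581, 0.744 and 0.758 in EA libraries, against 0.731, 0.821, 0.703 and 0.826 in WT libraries. These groups also overlapped.

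The ratio of Rel to Dif plus dl, which sets the Imd factor against the Toll factors, was 0.948, 0.915, 1.42 and 0.980 in EA libraries, against 0.788, 0.791, 0.660 and 0.871 in WT libraries. This was the 1 ratio of the 4 whose groups did not overlap. Of single genes tested, 7.99% had groups that did not overlap, and no such share was computed for ratios. EA replicate 2 was above all WT libraries in the ratio, although Rel itself was within the WT range there. Its Dif and dl counts, 1492 and 1112, were the lowest of the 8 libraries.

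**Figure D4:**
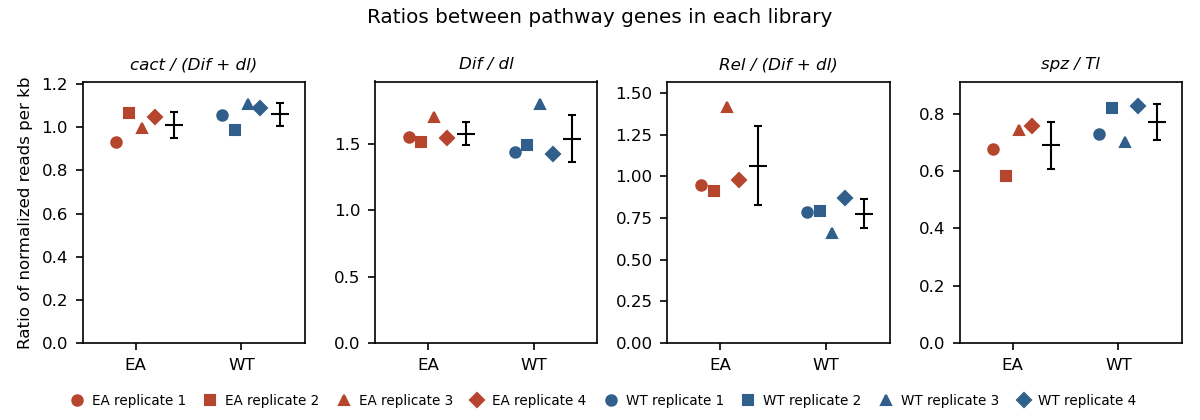
Ratios of member levels per kb in each library (cact over Dif plus dl, Dif over dl, Rel over Dif plus dl, spz over Tl), EA left and WT right. The EA and WT points overlap in 3 panels, and in the panel of Rel over Dif plus dl the lowest EA library is at 0.915 and the highest WT library at 0.871.

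Around the members, 58 other genes of the 2 pathways were listed by role, of which 55 were in the table and 48 reached the minimum for testing. The genes 18w, PGRP-SC1a and PGRP-SC1b were not matched and are not analysed here. None of the 48 passed in limma or edgeR, and 2 passed in DESeq2 (background shares as above). In limma 32 were higher and 16 lower in EA. Their log2 fold changes had a median of 0.09, and 12 had an unadjusted p under 0.05 (10 higher, 2 lower), against 12.7% of all genes. EA replicate 3 was the highest library in 23 of the 48 (47.9%). All EA libraries were above all WT libraries in 5 of the 48 (3.96% of all genes) and below them in 2 (4.03%).

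Of the 14 recognition and protease genes upstream of spz 11 were tested, and 9 were higher and 2 lower in EA (10 and 1 when scaled by total reads), none past the threshold and 4 at an unadjusted p under 0.05. Their median log2 fold change was 0.54, and 0.26 without EA replicate 3, which was the highest library in 9 of the 11. The most abundant was SPE, the protease that cleaves Spätzle, with 969, 706, 1957 and 967 normalized counts in EA libraries, against 684, 633, 539 and 822 in WT libraries. As for nec and Rel, EA replicate 3 was far above the others, while EA replicate 2 was within the WT range, and the log2 fold change of SPE was 0.69 ± 0.27 (limma adjusted p = 0.328). The highest estimate was that of PGRP-SD, a peptidoglycan recognition protein, at 1.06 ± 0.64 (limma adjusted p = 0.563), and the lowest that of ea, the protease that cleaves Spätzle in the embryo, at -0.61 ± 0.23 (limma adjusted p = 0.304). The protease gene ndl, named after its values were seen, was below the minimum for limma with at most 3.52 normalized counts in EA libraries, against 6.32 to 19.8 in WT libraries, and had a DESeq2 adjusted p of 0.0194.

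All 9 cytoplasmic genes of the Toll pathway were tested, with 6 higher and 3 lower, none past the threshold, 2 at an unadjusted p under 0.05 and a median log2 fold change of 0.08. Pli, the Pellino gene, had the highest estimate at 0.25 ± 0.09 (limma adjusted p = 0.239), with all EA libraries above all WT libraries. Traf6 had the lowest at -0.29 ± 0.11 (limma adjusted p = 0.297), with all EA libraries below all WT libraries. The most abundant, the kinase gene Gprk2, had 0.05 ± 0.11 (limma adjusted p = 0.903).

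Of the other Spätzle and Toll family genes 6 were tested, with 1 higher and 5 lower and a median of -0.07 (4 higher, 2 lower and 0.021 when scaled by total reads), and none had an unadjusted p under 0.05. Their estimates ran from -0.17 ± 0.08 for Tollo (limma adjusted p = 0.436) to 0.11 ± 0.24 for Tehao (0.920), and the most abundant, Toll-6, had -0.01 ± 0.10 (0.990). EA replicate 3 was the highest library in none of these 6 genes.

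The 6 tested genes for Imd receptors and related peptidoglycan recognition proteins had a median log2 fold change of 0.64, and 0.34 without EA replicate 3, which was the highest library in all 6. In EA 5 were higher and 1 lower, and none passed in limma, with 2 at an unadjusted p under 0.05. PGRP-SB1, an enzyme that degrades peptidoglycan, had the highest estimate at 2.09 ± 0.85 (limma adjusted p = 0.338, DESeq2 adjusted p = 0.0406). Its normalized counts were 474, 91.4, 2425 and 203 in EA libraries, against 107, 128, 44.2 and 102 in WT libraries, so that 3 EA libraries were above WT and EA replicate 2 was inside it. PGRP-LF, a receptor homologue that blocks signalling, was the other gene past the threshold in DESeq2 (adjusted p = 0.020), with 1.01 ± 0.30 in limma (adjusted p = 0.176). The most abundant was the receptor gene PGRP-LC at 0.26 ± 0.12 (limma adjusted p = 0.404), and the lowest was PGRP-LB at -0.14 ± 0.35 (0.929).

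A group of 9 adaptor, kinase and ubiquitin enzyme genes of the Imd pathway was tested, with 7 higher and 2 lower (9 and 0 when scaled by total reads), none past the threshold, 1 at an unadjusted p under 0.05 and a median of 0.12. IKKbeta (ird5), the catalytic partner of Kenny, had the highest estimate at 0.37 ± 0.18 (limma adjusted p = 0.441), Diap2 the lowest at -0.05 ± 0.06 (0.810), and the most abundant, the ubiquitin conjugating enzyme eff, 0.08 ± 0.07 (0.731). Among 7 intracellular inhibitors 4 were higher and 3 lower (6 and 1 when scaled by total reads), with none past the threshold, 3 at an unadjusted p under 0.05 and a median of 0.04, which was -0.013 without WT replicate 1 and 0.11 without WT replicate 2 or 3. The highest was pirk, an inhibitor that Imd signalling itself induces, at 0.69 ± 0.25 (limma adjusted p = 0.288), the lowest was scny at -0.12 ± 0.09 (0.650), and the most abundant was dnr1, an inhibitor of Dredd, at 0.35 ± 0.11 (0.176). All EA libraries were above all WT libraries in dnr1 and CYLD, and below them in none of the 7. EA replicate 3 was the highest library in none of the 7 inhibitors.

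The antimicrobial effector genes, the outputs of both pathways, spread far more than the members. Of 20 listed, 19 were in the table (Drs was not matched and is not analysed here) and 17 were tested. Of those 16 were higher and 1 was lower in EA, and their log2 fold changes had a median of 1.93. None passed in limma or edgeR, and 9 had an unadjusted p under 0.05 in limma, against 12.7% of all genes. In DESeq2 7 passed, against 4.54% of all genes given an adjusted p, and 2 of the 17 were given none. Their summed normalized counts were 14678, 3395, 56816 and 7320 in EA libraries, against 2793, 3134, 2600 and 3515 in WT libraries. In this sum EA replicate 2 was thus within the WT range while EA replicate 3 was at the top, as for nec and Rel. By gene, all EA libraries were above all WT libraries in 5 of the 17, against 3.96% of all genes tested, and below in 0. These 5 were BomS1, BomS3, BomBc1, BomBc3 and Dro. EA replicate 3 was the highest library in 16 of the 17 genes. Without that library the median was 1.30. The 2 genes at the floor of 3 reads per library in WT, CecA1 (2.86) and CecA2 (2.98), already lay above the median of all 8 libraries. Setting them to their bound therefore could not move it from 1.93. Those past the threshold in DESeq2 were DptA, AttC, BomS1, BomS2, BomS3, BomBc1 and BomBc3, with DESeq2 adjusted p values from 0.0018 to 0.0214. In EA libraries DptA had 138.6, 5.27, 1562 and 4.02 normalized counts, against a WT mean of 5.36. AttC had 551, 17.6, 6682 and 14.3, against a WT mean of 23.5. For both genes only EA replicates 1 and 3 were above WT, and EA replicates 2 and 4 were inside the WT range. In BomS1, BomS2, BomS3, BomBc1 and BomBc3 EA replicate 4 was above all WT libraries. The most abundant, BomS3, a bomanin peptide gene, had 3129, 828, 7710.4 and 1818 normalized counts in EA libraries, against 679, 728, 688 and 767 in WT libraries, with no overlap between the groups and an estimate of 1.78 ± 0.54 (log2, SE; limma adjusted p = 0.178). Dro (Drosocin) had the highest estimate at 3.93 ± 1.40 (limma adjusted p = 0.267), Def (Defensin) the lowest at -3.27 ± 0.93 (limma adjusted p = 0.154).

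**Figure D5:**
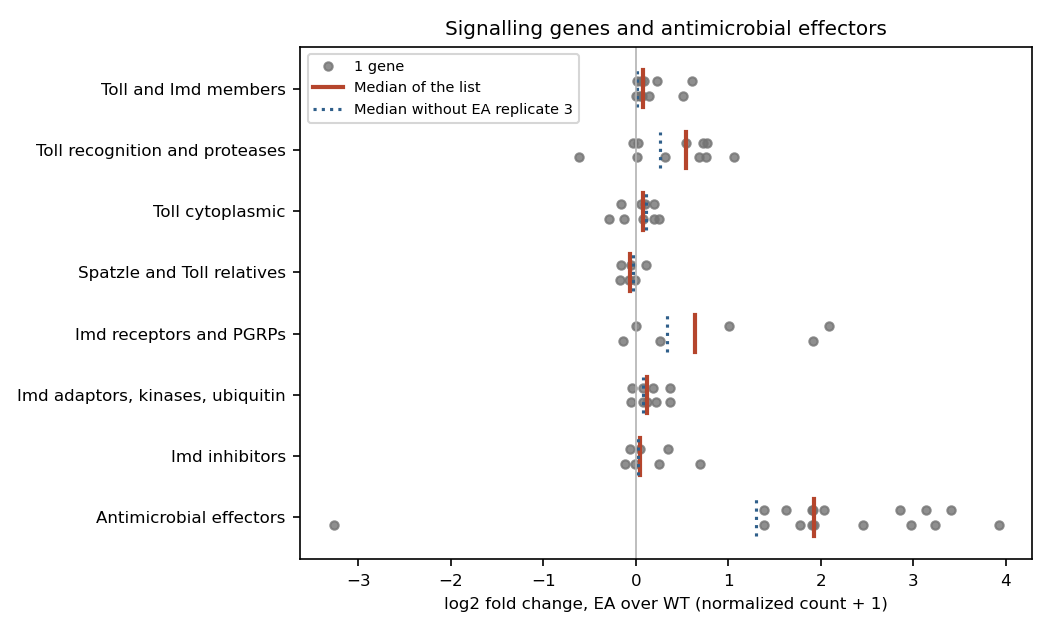
Fitted log2 fold change of EA over WT (limma) for every tested gene of the members, the 6 lists of other pathway genes and the effectors, with the median of each list. The members' median is 0.08, the medians of the upstream Toll genes (0.54), the Imd receptor genes (0.64) and the effectors (1.93) are higher, and no gene shown passes the threshold.

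Markers of the cells in which the pathways act are given beside these values. From 9 markers of hemocytes (blood cells) the table held 8, of which 7 reached the minimum, 6 of them higher and 1 lower in EA with none past limma's threshold, and He was at or near 0 in every library. Their summed normalized counts were 6382, 6677, 12014 and 11835 in EA libraries, against 6457, 6816, 6658 and 7876 in WT libraries. Col4a1, the most abundant (0.29 ± 0.18, limma adjusted p = 0.581), and Pxn, the lowest (-0.35 ± 0.14, 0.319), made up most of the sum. Hml had 1268, 926, 4449 and 3387 normalized counts in EA libraries, against 852, 902, 883 and 1031 in WT libraries, and was thus highest in EA replicate 3, then in replicate 4. The marker eater had the highest estimate at 1.41 ± 0.43 (limma adjusted p = 0.177) and was past the threshold in DESeq2 (adjusted p = 0.0049). From 12 fat body markers it held 11, of which 8 reached the minimum, 6 higher and 2 lower with none past limma's threshold, and the sum of the 11, mostly apolpp, was 54130 to 105335 in EA libraries, against 33745 to 45643 in WT libraries. Of these, apolpp (1.077 ± 0.22, limma adjusted p = 0.0569) passed in edgeR (adjusted p = 0.0452) and DESeq2, Lsp2 (2.87 ± 0.67, 0.0864) in DESeq2 (adjusted p = 0.0249), and Lsp1beta had the lowest estimate at -0.55 ± 0.27 (0.446). The 3 tested midgut markers and those below the minimum summed to 243.5 to 1683 in EA libraries, against 159 to 199 in WT libraries. Most of that was the amylase gene Amy-d, with 258, 205, 1433 and 363 normalized counts in EA libraries, against 105, 149.99, 102 and 119 in WT libraries (log2 fold change 1.78 ± 0.51, limma adjusted p = 0.157, DESeq2 adjusted p = 0.021), and the other large part was Amy-p in EA replicate 3 (200.2). Among the 3 tested, Amy-p had the highest estimate at 2.11 ± 1.48 (limma adjusted p = 0.632) and lab the lowest at -0.02 ± 0.30 (0.990), and the proteases Jon65Aiv, Jon65Aiii and betaTry were at or near 0 in EA libraries. The part of these markers in the values of Tl, nec and Rel was not tested.

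For 3 members the genes with the most similar profile over the 8 libraries were found, as the smallest root mean square difference between log2 values centred on each gene's mean. For Tl, whose own profile had an SD of 0.1497, these were Btk (0.0484), tkv (0.0518) and an identifier without a symbol (0.0553). For cact (SD 0.133) they were Herp (0.0446), r2d2 (0.0461) and viaf (0.0472). For Rel (SD 0.437) they were Cyp28d1 (0.0880), Mtp (0.0947) and cathD (0.111).

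Short stretches of exon of 6 members are shared with another gene of the table on the opposite strand in the BDGP6.54 annotation, and without a known strand setting reads from such a stretch cannot be told apart. The overlap was 252 bp between Dif and CG15141, which is 4.42% of the exon length of Dif, and 40 bp between imd and GstE9 (2.64%). As a percent of the member's exon length it was below that of imd for cact with fzy (62 bp, 1.87%), key with CG3589 (29 bp, 2.04%), Dredd with Mybbp1A (12 bp, 0.703%) and spz with CG43935 (5 bp, 0.212%). GstE9 was itself more abundant than imd, with means of 547 in EA and 295 in WT (log2 fold change 0.78, limma adjusted p = 0.304). Tl, nec, dl and Rel had no such overlap.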

How the data were processed

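RNA sequencing of fly heads gave 8 libraries, 4 of EA and 4 of WT. The deposited table holds, for 14622 FlyBase identifiers, a signal that is the read count of a library divided by 1 size factor, which the authors computed with DESeq2. The submitters' processing notes list TopHat, featureCounts, Subread, DESeq2, dm3 and BDGP5, without roles. The annotation release used for counting and its strand setting are not given in the sources used here. Further deposited columns hold the authors' overall mean, log2 fold change with its standard error, test statistic and p-values, and none of these was used. Dividing each column by its smallest step returned whole numbers (within 0.01) for 100% of values, so whole reads were recovered. The EA libraries summed to between 12517490 and 24342035 reads, the WT libraries to between 9930607 and 19173154.

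Gene symbols, positions and exons were read from Ensembl's annotation of BDGP6.54, release 115, and 14023 identifiers (95.9%) matched. That annotation supplied exon lengths and overlaps and was not used to count reads again. All 10347 genes whose mean over the libraries was 10 or more normalized counts were tested with limma 3.58.1 in R 4.3.3 (functions lmFit and eBayes, trended variance) on log2(normalized count + 1), with group as the only term, two-sided, and p-values were adjusted by the method of Benjamini and Hochberg over all 10347 genes with a threshold of 0.05. Fold changes are on this log2(value + 1) scale, which understates changes of low genes. The alternatives were edgeR 4.0.16 and DESeq2 1.42.0 on the recovered reads, other scalings, pseudocounts, minimums and thresholds, a replicate block, leaving out each library in turn and, for levels per length, another transcript length. The fitting code was tested on simulated data.

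The text names all 10 members and the genes whose exons overlap them. From each other list it describes it names genes past limma's threshold, the genes with the highest and the lowest log2 fold change and the most abundant gene. For Tl, cact and Rel it names the 3 genes with the closest profile, and Adar and w serve as checks of the labels. Any other gene named was chosen after its values were seen. The members and lists were chosen with earlier results of these data known. Nothing in the labels says whether replicates came from separate cultures, so the p-values measure only the spread between these samples, which may be technical.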

Additional observations from a re-analysis of the deposited data

Results flagged for a closer look

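In 3 of 28 groups of 4 libraries that were examined (20 of member counts, 8 of member ratios) a library lay far from the others by Dixon's criterion at the 95% level, where chance gives about 1 in 20 groups. The 28 groups are not independent, because the ratios reuse the member counts. Tl was at 1962 normalized counts in EA replicate 1, against 1669 to 1695 in the other EA libraries. The ratio of Dif to dl was 1.70 in EA replicate 3, against 1.52 to 1.55 in the other EA libraries. That value lay inside the WT range of 1.42 to 1.80. The ratio of Rel to Dif plus dl was 1.42 in EA replicate 3, against 0.915 to 0.980 in the other EA libraries, which were all above WT.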

How the results depend on the processing

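No member passed the threshold under any alternative. The lowest adjusted p of a member was 0.136 (Tl, DESeq2), and the lowest for Rel was 0.165 (DESeq2). Leaving out single libraries moved the log2 fold change of Tl from 0.17 to 0.25, spz 0.016 to 0.17, nec 0.22 to 0.89, Rel 0.27 to 0.65 and Dredd 0.07 to 0.27. It crossed 0 for cact (-0.084 to 0.052), Dif (-0.016 to 0.17), dl (-0.021 to 0.11), imd (-0.084 to 0.17) and key (-0.068 to 0.057), and the other alternatives turned no member's direction. Genes called among all genes numbered 125, against 520 in DESeq2, 79 with a mean of at least 50, 26 at a threshold of 0.01, 239 at 0.1 and 36 to 184 without single libraries. Scaling by total reads called 158, of which 74.7% were higher in EA, against 54.4%. Of the other pathway genes tested, DESeq2 called 2 and limma 1 without EA replicate 2 (PGRP-LF, adjusted p = 0.0446), against 0 in edgeR and without each other library. The median of the Imd inhibitors ran from -0.013 to 0.11 without single libraries and that of the effectors from 1.30 to 2.82. With the longest transcript as length, 3 of the 10 WT ranks were the same. With the replicate number as a block 26 genes were called and no member. The deviations of same-numbered libraries correlated at 0.19, -0.19, -0.23 and -0.12 across genes, which showed no clear pairing by number. As the deviations were taken from means of only 4 libraries, this check cannot exclude a weak pairing. With 4 libraries per group and a wide EA spread, fitted folds under 3.501 for nec and 2.11 for Rel could not have passed in limma.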
